A study of Mus musculus with 12 samples.

Results

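Transcripts of 35 mouse genes of glycolysis and of the response to low oxygen were followed through germ cells made in culture and germ cells taken from embryos. The genes were listed by name: 21 glucose transporters, glycolytic enzymes, their regulators and lactate genes, and 14 targets of the hypoxia-inducible factor (HIF). A gene was read from the array probe set that names no other gene and has the highest mean over the 12 arrays. Of the 35 genes, 32 had such a probe set and all 32 passed the filter on dim genes, among 13436 genes tested. Gpi1, Eno1 and Bnip3l had none and are not analysed here.

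Primordial germ cells (PGCs) are the embryonic precursors of oocytes and sperm, and PGC-like cells (PGCLCs) are their counterparts induced in culture from embryonic stem cells. The 6 groups held 2 arrays each. Female PGCLCs were measured at day 3 (d3), at day 6 (d6 female), and at d3 plus 6 days in an aggregate with somatic cells from the gonads of female embryos of E12.5 (d3ag6). Male PGCLCs were measured at day 6 (d6 male). All PGCLCs had a C57BL/6 background and the BVSC reporters, Blimp1-mVenus and stella-ECFP. The PGCs, female ones at E12.5 and those of unknown sex at E9.5, came from C57BL/6 males carrying stella-EGFP and wild-type BDF1 females. Strain background and reporter therefore change with every comparison of PGCLCs with PGCs and cannot be told apart from it. Every sample was sorted on its reporter, and cDNA from 5 ng of RNA, the content of about 500 cells, was amplified. The labels do not say how many cell lines or litters were pooled in a sample, although their titles call them biological replicates. The p-values therefore measure only the spread between the 2 samples of a group, pooled over the 6 groups. In such bulk samples, fewer cells of a type and less RNA per cell cannot be told apart.

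Glycolysis takes glucose in through transporters of the SLC2A family, breaks it down to pyruvate, and can pass pyruvate on to lactate, which leaves through SLC16A transporters. When oxygen is low, the prolyl hydroxylases EGLN1 to EGLN3 slow down, the HIF alpha subunits escape the VHL ubiquitin ligase, and HIF with its partner ARNT binds the core motif ACGTG or GCGTG and raises many of these genes. Embryonic stem cells and early embryonic cells are known for active glycolysis, and PGCs shift towards respiration as they develop.

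The HIF core motif was looked for as ACGTG and GCGTG on both strands in the 250 bases before each listed start of a gene. These starts were taken from RefSeq (GRCm38.p6), and some genes have several. Of the 35 genes 32 matched this table, all but Bnip3l, Ndrg1 and Slc2a3, and 30 of them held a motif in at least 1 promoter. These 32 are not the 32 genes measured, since they include Gpi1 and Eno1. Over all 32851 promoters of the table, each counted singly, the share was 38.6%. Counted per gene with any promoter, as for the 32, it was 41.5% of the 27025 genes in the table. Among the 10851 tested genes with a promoter it was 59.6%, counted in the same way. A gene with several starts has more chances of a match. Promoters of 5 genes are shown as examples of uptake and lactate genes called in d3ag6 against E12.5 (Slc2a1, Ldha and Slc16a3) and of HIF targets called in d3ag6 against d3 (Egln1 and P4ha2). They were picked with their values and matches known. Ldha has a second promoter, not shown, with 1 match, and the promoter of Pfkl, a gene with a larger change than Ldha, holds 1. They are written 5′ to 3′ on the strand of the gene, ending at the last base before the start used, with motif letters of either strand in capitals. They lie at chr4:119108495-119108744 (+), chr7:46845554-46845803 (+), chr11:120948817-120949066 (+), chr8:124949255-124949504 (-) and chr11:54100674-54100923 (+) in that order. Those of Slc2a1, Egln1 and P4ha2 adjoin the outer end of the annotated gene. Those of Ldha and Slc16a3 lie within the annotated genes, which begin at chr7:46842274 and chr11:120948484.
Slc2a1: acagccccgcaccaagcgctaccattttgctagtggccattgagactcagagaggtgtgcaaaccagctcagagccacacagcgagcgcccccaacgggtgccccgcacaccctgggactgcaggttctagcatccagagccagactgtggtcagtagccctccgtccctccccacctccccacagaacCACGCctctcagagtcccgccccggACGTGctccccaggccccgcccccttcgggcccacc
Ldha: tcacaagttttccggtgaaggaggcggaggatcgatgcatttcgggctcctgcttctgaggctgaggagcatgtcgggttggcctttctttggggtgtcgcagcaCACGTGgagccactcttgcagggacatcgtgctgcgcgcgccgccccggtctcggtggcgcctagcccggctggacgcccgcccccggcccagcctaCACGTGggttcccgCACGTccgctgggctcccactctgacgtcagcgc
Slc16a3: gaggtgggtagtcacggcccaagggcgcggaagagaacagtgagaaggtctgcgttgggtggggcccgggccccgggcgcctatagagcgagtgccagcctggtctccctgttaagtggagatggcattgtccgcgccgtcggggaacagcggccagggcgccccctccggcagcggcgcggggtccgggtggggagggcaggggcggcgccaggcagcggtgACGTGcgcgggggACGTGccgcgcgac
Egln1: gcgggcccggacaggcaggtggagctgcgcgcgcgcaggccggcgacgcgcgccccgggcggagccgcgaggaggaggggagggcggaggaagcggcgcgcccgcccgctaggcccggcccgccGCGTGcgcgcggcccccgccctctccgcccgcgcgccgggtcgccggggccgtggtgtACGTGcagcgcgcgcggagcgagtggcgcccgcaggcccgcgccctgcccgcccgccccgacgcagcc
P4ha2: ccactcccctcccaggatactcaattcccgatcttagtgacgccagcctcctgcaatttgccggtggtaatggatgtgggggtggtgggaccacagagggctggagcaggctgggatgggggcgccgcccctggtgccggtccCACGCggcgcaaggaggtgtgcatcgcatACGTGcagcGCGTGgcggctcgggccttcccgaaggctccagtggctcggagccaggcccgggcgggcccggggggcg
Ldha held 5 matches, which overlap where CACGTG reads the same on both strands, and P4ha2 held 3. Slc2a1, Slc16a3 and Egln1 held 2 each, and Tpi1 held none. A match says that these letters are present and not that a factor was bound.

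Values are log2 signal after quantile normalization, and a change is a difference of 2 group means with its standard error (SE) from limma. Calls were made where the adjusted p lay under 0.05, and the background is the share of all tested genes called. The 2 arrays per group limit the precision of each mean. The labels give each array a code whose meaning they do not state. Code EA1013 covers E12.5 and the 3 female PGCLC groups, whereas E9.5 and d6 male each had replicate 1 on EA0831 and replicate 2 on EA0842. Comparisons between these sets of groups therefore cannot be told apart from array code. Of 8 germ cell markers (Ddx4, Dazl, Dppa3, Prdm1, Tfap2c, Dnd1, Kit and Pou5f1), 8 stood above the median of all values on both arrays of each group except E9.5, where Dazl measured 5.92 and 3.81. The 2 replicates of d3 stood apart in RNA coverage: the 3′ control of Gapdh exceeded the 5′ control by 5.74 in replicate 1 and by 1.89 in replicate 2. The same difference was 4.79 and 5.85 in d3ag6, 3.89 and 4.07 at E12.5, and between 0.23 and 2.27 on the other 6 arrays.

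Markers of other cells also differed between groups, and none was listed at 0. The summed log2 signal of 10 blood and macrophage markers was 66.2 to 66.7 in d3ag6 and 40.1 to 51.8 elsewhere. Among them Lyz2 measured 7.91 and 8.45 in d3ag6 and at most 4.79 on any other array. Not all of them peaked in d3ag6: Cd14 was highest on d6 female replicate 2, Fcer1g on d6 female replicate 1 and Itgam on E9.5 replicate 1. The other markers of this list were each highest on a d3ag6 array. The sum of 13 gonadal somatic markers was 70.7 to 72.4 in d3ag6 and 58.3 to 68.1 elsewhere. Erythroid markers (7 genes) summed to 50.9 to 60.2 at E9.5 and 25.8 to 36.0 elsewhere, and mesenchyme markers (9 genes) to 58.8 to 68.1 at E9.5 and 38.4 to 51.4 elsewhere. Endothelial markers (8 genes) summed to 63.4 on both d6 male arrays and 42.5 to 59.3 elsewhere. The part of these markers in the results was not tested.

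Among the 4 groups with code EA1013, E12.5 had the lowest mean for 16 of 19 glycolysis genes (84.2%, against 31.4% of all genes tested). In the same 4 groups d3 had the lowest mean for 8 of 13 HIF targets (61.5%, against 23.9%). The highest mean was that of d3ag6 for 13 of 19 glycolysis genes and for 10 of 13 HIF targets. Over all 32 genes d3ag6 was highest for 23 (71.9%, against 20.9% of all genes tested) and E12.5 lowest for 21 (65.6%, against 31.4%). With all 6 groups, which differ in array code, E12.5 was lowest for 10 of 19 glycolysis genes (52.6%, against 20%). There d3 was lowest for 3 of 13 HIF targets (23.1%, against 12.2%) and d6 male for 5 (38.5%, against 20.3%). A test of any difference among the 4 groups called 22 of 32 genes, with a background of 24.4%. Limma called 15 of 32 genes in d3ag6 against E12.5 (background 9.03%), 12 in d3ag6 against d3 (10.6%), 4 in d6 female against d3 (4.06%), 2 in d3ag6 against d6 female (6.39%) and 11 in d6 male against E9.5 (10.6%). In the 3 comparisons across array codes it called 13 at E12.5 against E9.5 (23.6%), 7 in d6 female against E9.5 (13.9%) and 6 in d6 female against d6 male (1.47%).

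**Figure D1:**
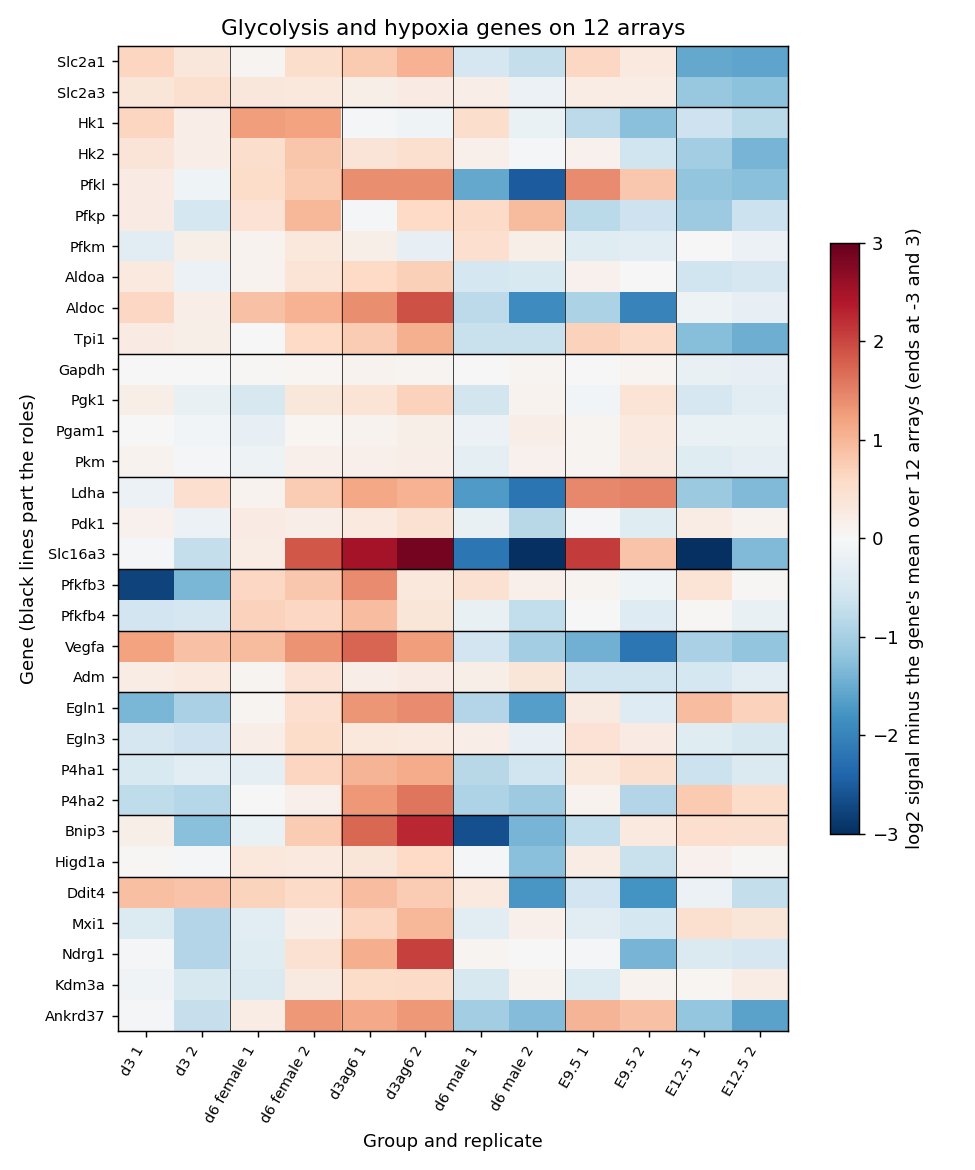
Log2 signal of the 32 genes (rows, parted by role) on the 12 arrays (columns), as the difference from each gene's mean over the arrays; the colour scale ends at -3 and 3. The d3ag6 columns are red for most genes, the E12.5 columns are blue for most glycolysis genes, and the Gapdh, Pgam1 and Pkm rows stay pale.

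Both glucose transporters had their lowest values at E12.5. Slc2a1 measured 11.76 and 11.44 at d3, 11.18 and 11.63 in d6 female, 11.89 and 12.15 in d3ag6, 9.58 and 9.53 at E12.5, 11.74 and 11.39 at E9.5 and 10.60 and 10.39 in d6 male. SLC2A1 (GLUT1) supplies basal glucose uptake in many cells. Both E12.5 arrays lay below all 10 others, and both d6 male arrays lay below the remaining 8. Slc2a3 measured 12.92 and 13.02 at d3, 12.89 and 12.86 in d6 female, 12.73 and 12.81 in d3ag6, 11.41 and 11.33 at E12.5, 12.77 and 12.78 at E9.5 and 12.75 and 12.37 in d6 male. SLC2A3 (GLUT3) has a high affinity for glucose. Here too both E12.5 arrays were the lowest, and the other 10 arrays lay between 12.37 and 13.02. Slc2a1 was higher in d3ag6 than at E12.5 by 2.46 (SE 0.21, adjusted p = 0.000393), and Slc2a3 by 1.40 (SE 0.16, adjusted p = 0.00123).

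Among the enzymes from hexokinase to triose phosphate isomerase, the members of a family did not move as one. Hexokinases trap glucose in the cell as its phosphate. Hk1 measured 11.53 and 11.07 at d3, 12.13 and 12.07 in d6 female, 10.84 and 10.73 in d3ag6, 10.26 and 10.07 at E12.5, 10.08 and 9.61 at E9.5 and 11.41 and 10.68 in d6 male. Both d6 female arrays were above all others and both E9.5 arrays at or near the bottom. Hk2 measured 9.77 and 9.57 at d3, 9.90 and 10.21 in d6 female, 9.76 and 9.85 in d3ag6, 8.34 and 7.98 at E12.5, 9.49 and 8.77 at E9.5 and 9.53 and 9.31 in d6 male. HK2 is the HIF-responsive, inducible form. E12.5 was lowest without overlap, and d3, d6 female and d3ag6 lay between 9.57 and 10.22.

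Phosphofructokinase, the main control point of the pathway, has 3 genes on the array. Pfkl measured 9.97 and 9.60 at d3, 10.27 and 10.50 in d6 female, 11.12 and 11.12 in d3ag6, 8.54 and 8.46 at E12.5, 11.15 and 10.52 at E9.5 and 8.19 and 7.22 in d6 male. PFKL is the liver-type subunit. Its values separated d3ag6 and E9.5, both high, from E12.5 and d6 male, both low. Pfkp measured 11.27 and 10.49 at d3, 11.46 and 12.03 in d6 female, 10.97 and 11.61 in d3ag6, 9.95 and 10.39 at E12.5, 10.21 and 10.39 at E9.5 and 11.59 and 11.97 in d6 male. PFKP is the platelet-type subunit, and its E9.5 and E12.5 arrays overlapped at the low end. The muscle-type Pfkm spanned only 8.49 to 9.34 over the 12 arrays and was not called in any of the 8 comparisons.

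Aldolase and triose phosphate isomerase come next. Aldoa measured 12.67 and 12.22 at d3, 12.50 and 12.80 in d6 female, 12.99 and 13.09 in d3ag6, 11.78 and 11.88 at E12.5, 12.52 and 12.38 at E9.5 and 11.85 and 11.94 in d6 male. Both d3ag6 arrays of Aldoa were the highest of the 12. Aldoc measured 9.08 and 8.68 at d3, 9.34 and 9.51 in d6 female, 9.87 and 10.38 in d3ag6, 8.31 and 8.22 at E12.5, 7.52 and 6.48 at E9.5 and 7.68 and 6.58 in d6 male. Aldoc, the brain-type aldolase, was highest in d3ag6 and lowest on the second arrays of E9.5 and d6 male. Tpi1 measured 11.60 and 11.55 at d3, 11.34 and 11.95 in d6 female, 12.12 and 12.42 in d3ag6, 10.09 and 9.90 at E12.5, 12.04 and 11.94 at E9.5 and 10.69 and 10.69 in d6 male. TPI1 interconverts the 2 triose phosphates. Its d3ag6 arrays were the highest and its E12.5 arrays the lowest, with d6 male next to E12.5.

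The enzymes from glyceraldehyde phosphate to pyruvate passed no test. Gapdh lay between 12.99 and 13.33 on the 12 arrays, Pgk1 between 11.89 and 13.14, Pgam1 between 12.03 and 12.56 and Pkm between 12.16 and 12.81. Limma called 0 of these 4 in each of the 8 comparisons. At an unadjusted p under 0.05, 3 of 4 were higher in d3ag6 than at E12.5, 1 was lower at E12.5 than at E9.5, and none differed in the other 6. Their values stood within 2 log2 units of the highest value of an array, 13.85. Gapdh here is the 3′ control probe set of the array.

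The transcripts for making and exporting lactate separated the groups widely. Ldha measured 11.09 and 11.77 at d3, 11.37 and 12.04 in d6 female, 12.44 and 12.32 in d3ag6, 10.16 and 9.96 at E12.5, 12.71 and 12.76 at E9.5 and 9.56 and 9.08 in d6 male. LDHA turns pyruvate into lactate. E9.5 and d3ag6 stood at 12.32 or above, while E12.5 and d6 male stood at 10.16 or below. Slc16a3 measured 5.49 and 4.80 at d3, 5.75 and 7.38 in d6 female, 8.02 and 8.38 in d3ag6, 2.50 and 4.19 at E12.5, 7.62 and 6.37 at E9.5 and 3.34 and 2.36 in d6 male. SLC16A3 (MCT4) exports lactate and is a known HIF target. It was brightest in d3ag6, and its E12.5 and d6 male values lay below 4.81, the median of all values, where the size of a change is imprecise. Pdk1, whose product restrains the oxidation of pyruvate in mitochondria, ranged from 10.21 to 11.51 and was not called in any comparison.

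The 2 regulators of the fructose bisphosphate that activates phosphofructokinase had their lowest group means at d3. Pfkfb3 measured 5.92 and 7.33 at d3, 9.31 and 9.50 in d6 female, 10.12 and 9.02 in d3ag6, 9.10 and 8.73 at E12.5, 8.77 and 8.56 at E9.5 and 9.16 and 8.84 in d6 male. PFKFB3 is a hypoxia-inducible kinase that makes this activator. The 2 d3 arrays were the lowest of the 12, although they differed by more than 1 unit. Pfkfb4 measured 7.65 and 7.71 at d3, 8.92 and 8.83 in d6 female, 9.15 and 8.58 in d3ag6, 8.26 and 8.01 at E12.5, 8.21 and 7.84 at E9.5 and 7.99 and 7.49 in d6 male. PFKFB4 is a related enzyme of the same family. Its d6 female and d3ag6 arrays were the 4 highest, and d3 lay low beside the second d6 male array.

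**Figure D2:**
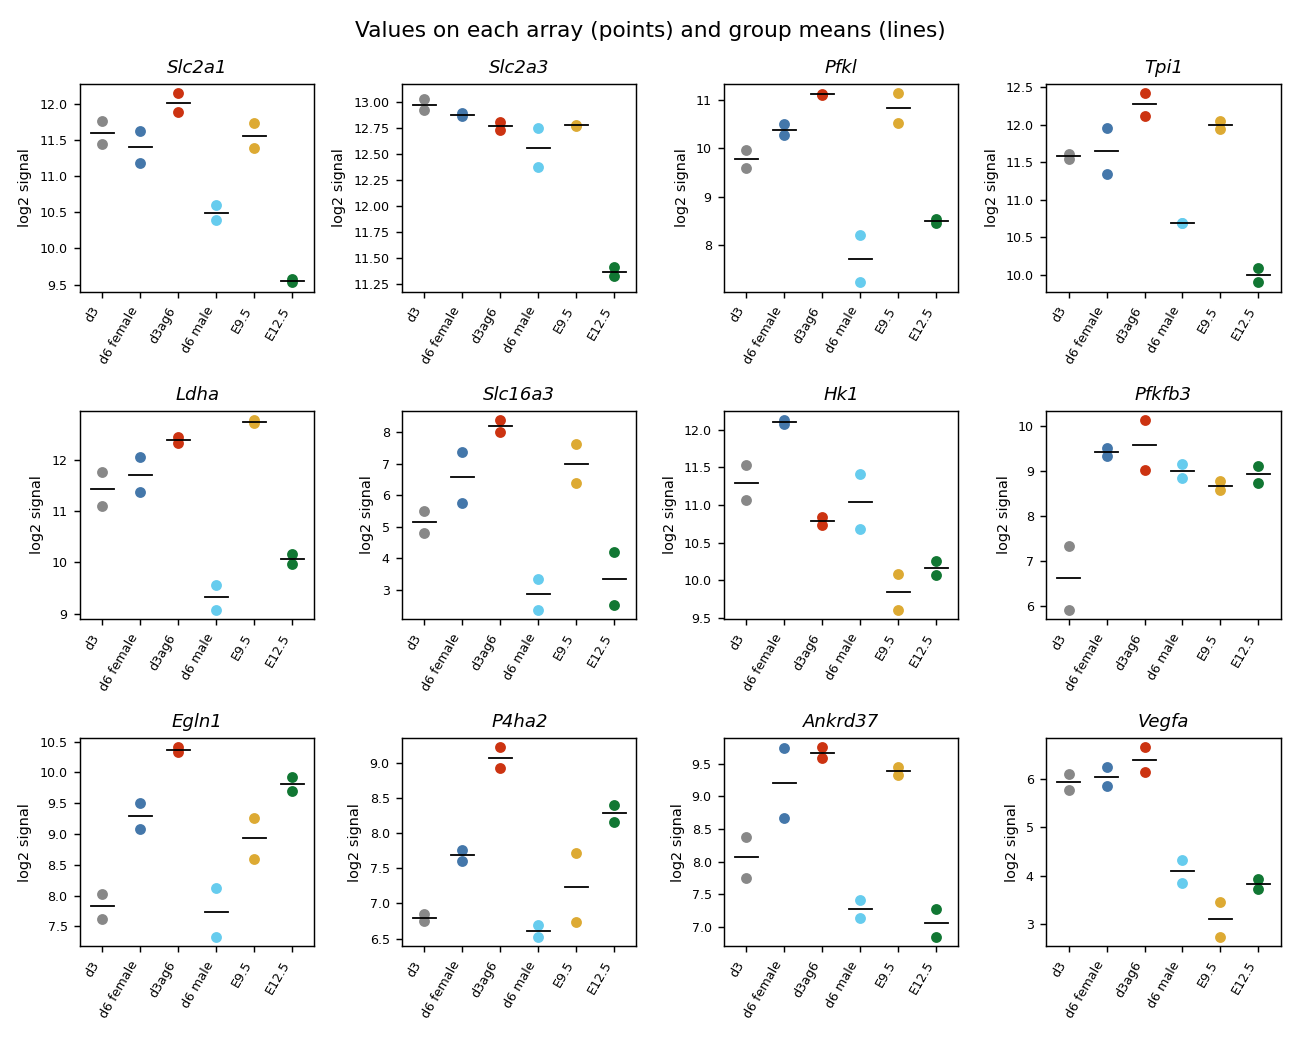
Log2 signal of 12 of the genes on each array (points; the black line is the mean of the 2 arrays of a group), with the 6 groups on the horizontal axis. Slc2a1, Slc2a3 and Tpi1 are lowest at E12.5, Pfkl and Ldha are lowest in d6 male, Pfkfb3 is lowest at d3, and Egln1 and P4ha2 are highest in d3ag6. Each panel has its own vertical axis, which does not start at 0.

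Among the HIF targets, both oxygen sensors were low at d3. Egln1 measured 7.62 and 8.03 at d3, 9.09 and 9.50 in d6 female, 10.33 and 10.40 in d3ag6, 9.93 and 9.69 at E12.5, 9.26 and 8.60 at E9.5 and 8.12 and 7.33 in d6 male. EGLN1 (PHD2) hydroxylates HIF alpha and is itself induced by HIF. The female PGCLC groups stood in the order d3, d6 female, d3ag6 without overlap. Egln3 measured 8.78 and 8.66 at d3, 9.48 and 9.84 in d6 female, 9.61 and 9.57 in d3ag6, 8.91 and 8.80 at E12.5, 9.71 and 9.52 at E9.5 and 9.47 and 9.04 in d6 male. EGLN3 (PHD3) is a second such enzyme, and its d6 female and d3ag6 arrays both lay above d3 and E12.5.

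Prolyl 4-hydroxylase subunits, which prepare collagen for folding, were highest in d3ag6. P4ha1 measured 9.33 and 9.45 at d3, 9.53 and 10.44 in d6 female, 10.82 and 10.91 in d3ag6, 9.15 and 9.37 at E12.5, 10.11 and 10.27 at E9.5 and 8.96 and 9.21 in d6 male. For P4ha1, E9.5 and the second d6 female array came next and d6 male was lowest by its mean. P4ha2 measured 6.85 and 6.75 at d3, 7.60 and 7.76 in d6 female, 8.92 and 9.22 in d3ag6, 8.40 and 8.15 at E12.5, 7.72 and 6.74 at E9.5 and 6.69 and 6.53 in d6 male. For P4ha2 the E12.5 arrays came next, and d3, d6 male and the second E9.5 array were low.

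Of the genes of mitochondria, Bnip3 had a wide range. Bnip3 measured 9.79 and 8.35 at d3, 9.41 and 10.38 in d6 female, 11.33 and 11.86 in d3ag6, 10.12 and 10.08 at E12.5, 8.87 and 9.91 at E9.5 and 6.96 and 8.21 in d6 male. BNIP3 drives the removal of mitochondria. d3ag6 was highest and d6 male lowest, and in each of d3, E9.5 and d6 male the 2 arrays differed by more than 1. Higd1a ranged from 10.59 to 12.44, with the lowest values on the second arrays of d6 male and E9.5, and was not called.

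Regulators of growth, transcription and chromatin were mixed. Mxi1 measured 8.79 and 8.34 at d3, 8.89 and 9.41 in d6 female, 9.85 and 10.21 in d3ag6, 9.68 and 9.57 at E12.5, 8.89 and 8.67 at E9.5 and 8.88 and 9.36 in d6 male. MXI1 opposes MYC. d3ag6 was highest and E12.5 next. Ndrg1 measured 5.63 and 4.83 at d3, 5.34 and 6.16 in d6 female, 6.79 and 7.75 in d3ag6, 5.27 and 5.21 at E12.5, 5.68 and 4.32 at E9.5 and 5.78 and 5.69 in d6 male. Ndrg1, a stress-induced gene, was dim, and only d3ag6 exceeded 6.16. Ankrd37 measured 8.38 and 7.75 at d3, 8.67 and 9.74 in d6 female, 9.59 and 9.75 in d3ag6, 7.28 and 6.85 at E12.5, 9.45 and 9.32 at E9.5 and 7.41 and 7.13 in d6 male. ANKRD37 is an ankyrin repeat protein encoded by a known HIF target. Its d3ag6 and E9.5 arrays were high and its E12.5 and d6 male arrays low. Kdm3a, a histone demethylase, ranged from 10.36 to 11.40. Ddit4, an inhibitor of mTORC1, ranged from 8.41 to 11.13, with 8.41 and 8.47 on the second arrays of E9.5 and d6 male. Neither was called in any comparison.

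The secreted signals were dim. Vegfa measured 6.11 and 5.78 at d3, 5.85 and 6.25 in d6 female, 6.66 and 6.15 in d3ag6, 3.94 and 3.72 at E12.5, 3.47 and 2.74 at E9.5 and 4.33 and 3.85 in d6 male. VEGFA is the main growth factor of blood vessels, and its female PGCLC groups lay at 5.78 or above while the 3 other groups lay at 4.33 or below. Adm measured 6.28 and 6.33 at d3, 6.14 and 6.48 in d6 female, 6.26 and 6.31 in d3ag6, 5.53 and 5.74 at E12.5, 5.46 and 5.45 at E9.5 and 6.22 and 6.42 in d6 male. Adrenomedullin, a vasodilator peptide, spanned little more than 1 unit on this probe set, with E9.5 and E12.5 below all PGCLC arrays. The group means of its other probe set ran from 3.84 at E9.5 to 6.08 in d3ag6. On that probe set E12.5 (4.91) lay above d3 (4.89) and d6 male (4.57).

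The comparison of d3ag6 with E12.5 set aggregated PGCLCs beside PGCs of the embryonic gonad at the stage from which the aggregate's somatic cells came. All 32 genes had a higher mean in d3ag6, with a median change of 1.04 against 0.0033 over all genes, and 15 were called higher and 0 lower (background 9.03%, of which 5.95% higher and 3.07% lower; at an unadjusted p under 0.05, 23 higher and 0 lower). Both d3ag6 arrays lay above both E12.5 arrays for 30 of 32 genes, and for 4351 of all 13436 tested. The 15 covered uptake (Slc2a1 and Slc2a3), the upper pathway (Hk2, Pfkl, Aldoa, Aldoc and Tpi1), lactate (Ldha and Slc16a3) and 6 HIF targets (Vegfa, Adm, Egln3, P4ha1, Ndrg1 and Ankrd37).

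Slc16a3 differed by 4.85 (SE 0.71, adjusted p = 0.0042), and by 3.39 with values under 4.81 set to 4.81. Pfkl was 6.16-fold higher, a change of 2.62 (SE 0.32, adjusted p = 0.00164), and Tpi1 changed by 2.27 (SE 0.21, adjusted p = 0.000543). Ldha was 5.0-fold higher, by 2.32 (SE 0.29, adjusted p = 0.00184). Ankrd37 changed by 2.60 (SE 0.35, adjusted p = 0.00264) and Vegfa by 2.57 (SE 0.30, adjusted p = 0.00141), or 1.59 with the same floor. Hk2 rose by 1.64 (SE 0.25, adjusted p = 0.00513), P4ha1 by 1.60 (SE 0.27, adjusted p = 0.00746) and Aldoa by 1.21 (SE 0.19, adjusted p = 0.0055). The remaining changes were 1.86 for Aldoc, 2.04 for Ndrg1, 0.65 for Adm and 0.73 for Egln3.

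Slc2a1, Slc2a3, Pfkl, Tpi1, Ldha, Slc16a3, Vegfa and Ankrd37 kept their call without each of the 4 arrays. Hk2 lost it without E12.5 replicate 2 (adjusted p = 0.0522), Aldoa without E12.5 replicate 1 (0.0558), and P4ha1 without d3ag6 replicate 2 (0.0583) or E12.5 replicate 1 (0.0691). Aldoc, Adm, Egln3 and Ndrg1 lost theirs without any 1 of the 4 (adjusted p from 0.053 to 0.27), and without E12.5 replicate 1 the count was 9. The Gapdh 3′ minus 5′ difference was larger in d3ag6 (4.79 and 5.85) than at E12.5 (3.89 and 4.07), its part in the result was not tested, and blood and macrophage markers differed with d3ag6, with 4 of 7 tested called higher.

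d3ag6 against d3 follows PGCLCs through the aggregate. Changes were upwards in both classes: 8 of 13 HIF targets and 4 of 19 glycolysis genes were called higher, and none lower (12 of 32 in all; background 10.6%, of which 5.81% higher and 4.84% lower; at an unadjusted p under 0.05, 17 higher and 0 lower). Whether these 2 shares differ was not tested. The largest changes were those of Slc16a3 at 3.05 (SE 0.71, adjusted p = 0.026) and Pfkfb3 at 2.95 (SE 0.46, adjusted p = 0.00484). Egln1 rose 5.81-fold (2.54, SE 0.31, adjusted p = 0.00154), P4ha2 4.83-fold (2.27, SE 0.28, adjusted p = 0.00163) and Bnip3 5.75-fold (2.52, SE 0.59, adjusted p = 0.027). P4ha1 changed by 1.47, Mxi1 by 1.46, Ankrd37 by 1.60, Ndrg1 by 2.04, Pfkl by 1.34, Pfkfb4 by 1.18 and Egln3 by 0.87. The transporters Slc2a1 (0.42) and Slc2a3 (-0.20) and Ldha (0.96) did not pass.

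Pfkfb3, Egln1 and P4ha2 were called without each of the 4 arrays. Pfkl, Slc16a3 and Egln3 lost their call without any 1 of them (adjusted p from 0.0621 to 0.153), and Pfkfb4 without either d3 array or d3ag6 replicate 1 (0.0717 to 0.12). Bnip3, Ndrg1 and Ankrd37 lost it without d3 replicate 2 or either d3ag6 array (0.0516 to 0.188), P4ha1 without either d3ag6 array (0.0516 and 0.0617), and Mxi1 without replicate 2 of d3 (0.0566) or of d3ag6 (0.0644). Without d3 replicate 2, or either d3ag6 array, 4 genes were called. The Gapdh coverage of d3 replicate 1 resembled that of d3ag6 and that of d3 replicate 2 did not, and 4 of 7 blood and macrophage markers were called higher in d3ag6.

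**Figure D3:**
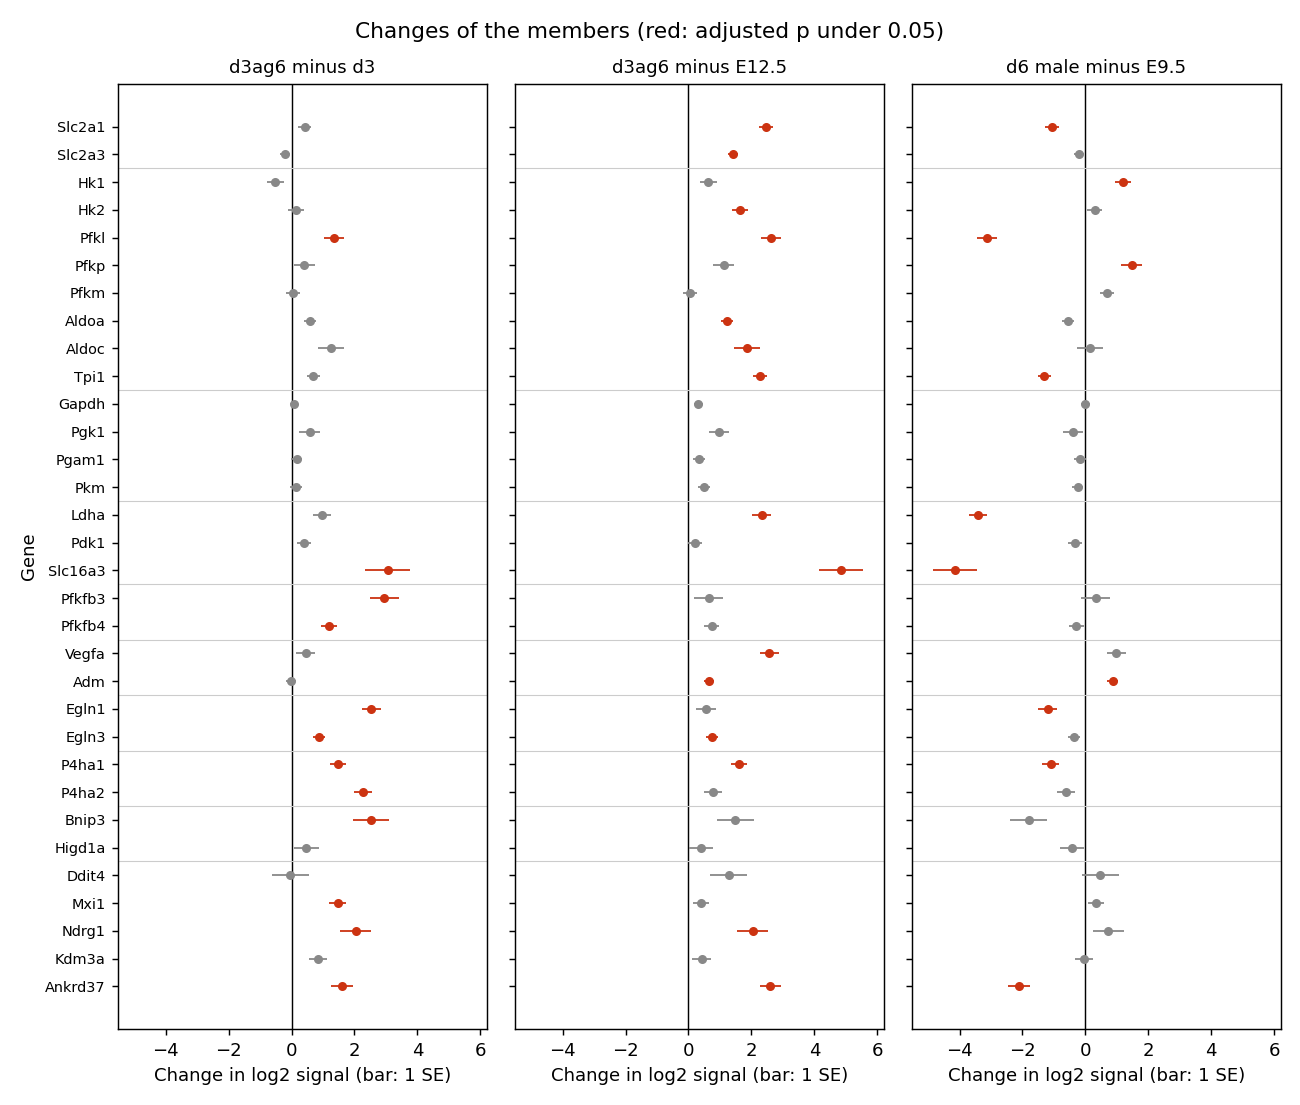
Change in log2 signal of each of the 32 genes (rows) with 1 SE on each side, for d3ag6 minus d3, d3ag6 minus E12.5 and d6 male minus E9.5; red points have an adjusted p under 0.05. In d3ag6 minus E12.5 all 32 points lie above 0, with Slc16a3 farthest right, and in d6 male minus E9.5 Ldha, Pfkl and Slc16a3 lie farthest left.

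From d3 to d6 female, 4 of 32 genes rose and none fell (background 4.06%, of which 1.72% higher and 2.34% lower; at an unadjusted p under 0.05, 9 higher and 0 lower). These were both fructose bisphosphate regulators and both oxygen sensors. Pfkfb3 rose by 2.78 (SE 0.46, adjusted p = 0.0132) and Pfkfb4 by 1.20 (SE 0.25, adjusted p = 0.0322). Egln1 rose by 1.46 (SE 0.31, adjusted p = 0.0366) and Egln3 by 0.94 (SE 0.19, adjusted p = 0.0318). This comparison and that of d3ag6 with d3 share the d3 arrays, and all comparisons of d3ag6 share its 2 arrays. No call held in every leave-one-out: Pfkfb3 kept it without d3 replicate 2 (adjusted p = 0.00895) and not without the other 3 arrays (0.059 to 0.0845), and the other 3 genes lost it without any 1 array (0.0614 to 0.195).

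Between d6 female and d3ag6, which differ in both time and surroundings, 1 gene was called higher and 1 lower (background 6.39%, of which 4.03% higher and 2.36% lower). P4ha2 was higher by 1.39 (SE 0.28, adjusted p = 0.0254) and Hk1 changed by -1.31 (SE 0.27, adjusted p = 0.0257). Both lost their call without any 1 of the 4 arrays (adjusted p from 0.0763 to 0.164). A share of 6.25% is close to the background. At an unadjusted p under 0.05, 11 genes were higher and 1 lower.

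d6 male PGCLCs were set beside E9.5 PGCs, the embryonic stage with the same array codes. Strain background and reporter differ here too, and the sex of the E9.5 PGCs is unknown. Ldha and Slc16a3 of the lactate genes were lower in d6 male, and the 8 enzymes from hexokinase to triose phosphate isomerase were split, with Pfkl and Tpi1 lower and Hk1 and Pfkp higher. In all, 8 of 32 genes were called lower and 3 higher (background 10.6%, of which 4.55% lower and 6.04% higher). Ldha differed 10.7-fold, a change of -3.41 (SE 0.29, adjusted p = 0.000309), and Pfkl 8.74-fold, a change of -3.13 (SE 0.32, adjusted p = 0.00058). Slc16a3 changed by -4.15 (SE 0.71, adjusted p = 0.0066), or by -2.19 with the floor at 4.81. Ankrd37 changed by -2.11 (SE 0.35, adjusted p = 0.00535) and Tpi1 by -1.30 (SE 0.21, adjusted p = 0.00533). Slc2a1 (-1.06), Egln1 (-1.20) and P4ha1 (-1.10) were lower too. Pfkp was higher by 1.48 (SE 0.33, adjusted p = 0.0233), Hk1 by 1.19 (SE 0.27, adjusted p = 0.0231) and Adm by 0.86 (SE 0.17, adjusted p = 0.0119).

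Within each code the direction was the same for all 11. Each call rests on the mean of these same within-code differences, so this agreement is not separate evidence. Counting genes called or not, 30 had the same direction in both codes. On EA0831 and EA0842 the difference was -3.14 and -3.69 for Ldha, -2.96 and -3.30 for Pfkl, -4.28 and -4.01 for Slc16a3, and -2.04 and -2.19 for Ankrd37. Bnip3 gave -1.91 and -1.70 without passing the test (adjusted p = 0.093). With array code as a block in a fit of the 4 arrays alone, added after the data were seen, Bnip3 was called (0.0253) and Adm was not (0.0643). Ldha, Pfkl, Slc16a3, Ankrd37 and Tpi1 kept their call without each array. Slc2a1 and Egln1 lost it without E9.5 replicate 1 or d6 male replicate 2 (0.0796 to 0.211), Hk1 without E9.5 replicate 2 or d6 male replicate 1 (0.111 and 0.0999), and Adm without d6 male replicate 2 (0.0663). Pfkp and P4ha1 lost it without any 1 array (0.0528 to 0.121), and without d6 male replicate 2 the count was 6. Of the markers of other cells, 4 of 6 erythroid and 5 of 8 mesenchyme genes were lower in d6 male and 4 of 8 endothelial genes higher.

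In 3 comparisons the array code changes with the group, and their differences cannot be told apart from it. E12.5 had 11 of 32 genes lower and 2 higher than E9.5 (background 23.6%, of which 10.7% lower and 12.9% higher). Tpi1 changed by -2.0 (SE 0.21, adjusted p = 0.000418), Slc2a1 by -2.01 (SE 0.21, adjusted p = 0.00044) and Ldha by -2.67 (SE 0.29, adjusted p = 0.000463). Pfkl (-2.34), Ankrd37 (-2.32), Slc2a3 (-1.40), Slc16a3 (-3.65, or -2.19 with the floor at 4.81), Hk2 (-0.97), P4ha1 (-0.93), Egln3 (-0.76) and Aldoa (-0.62) were lower too, and P4ha2 (1.05) and Mxi1 (0.84) higher. The other probe set of Egln3 gave 0.98, and the mean of all its probe sets gave 0.11. Tpi1, Slc2a1, Ldha, Slc2a3, Pfkl and Ankrd37 kept their call without each array, Slc16a3 lost it without E12.5 replicate 1 (0.0541), the other 6 lost it without 3 or 4 of the arrays (0.0557 to 0.19), and the count was 6 without E12.5 replicate 1 and 7 without replicate 2. d6 female had 6 genes higher and 1 lower than E9.5 (background 13.9%, of which 8.33% higher and 5.6% lower), led by Vegfa at 2.95 (SE 0.30, adjusted p = 0.000644) and Hk1 at 2.25 (SE 0.27, adjusted p = 0.00124). Aldoc (2.43), Pfkp (1.44), Hk2 (0.92) and Adm (0.86) were also higher, and Ldha was lower (-1.03). Vegfa was 1.24 with the floor at 4.81. Vegfa, Hk1 and Aldoc kept their call without each array, Adm lost it without d6 female replicate 2 (0.0822), and Hk2, Pfkp and Ldha each lost it without 3 of the 4 (0.0603 to 0.26). The count fell to 4 without d6 female replicate 2 or E9.5 replicate 2.

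d6 female against d6 male is the comparison of the sexes, where 6 of 32 genes were higher in females and none lower (background 1.47%, of which 0.968% higher and 0.499% lower; at an unadjusted p under 0.05, 19 higher and 0 lower). They were Pfkl at 2.68 (SE 0.32, adjusted p = 0.0114), Ldha at 2.38 (SE 0.29, adjusted p = 0.0121), Vegfa at 1.96, Aldoc at 2.29, Ankrd37 at 1.93 and Slc16a3 at 3.71. With values under 4.81 set to 4.81, Vegfa was 1.24 and Slc16a3 was 1.75, which ended the call of Slc16a3 (adjusted p = 0.134). No call held in every leave-one-out, with 2 genes called without d6 female replicate 1, 0 without its replicate 2 and 1 without d6 male replicate 2 (adjusted p of the lost calls from 0.052 to 0.219). Sex, array code and the endothelial marker sum, which was higher in d6 male, move together here.

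The other genes of the pathway were taken from 3 further lists. Of 12 tested genes of the HIF system itself, Hif1a, Arnt and Vhl were called in none of the 8 comparisons, with Hif1a between 10.29 and 11.40 on all arrays, Arnt between 6.68 and 8.08 and Vhl between 5.76 and 7.71. Epas1, which encodes HIF-2 alpha, measured 10.07 and 9.83 in d6 male and 7.24 and 6.30 at E9.5, with the other 8 arrays between 7.36 and 8.87. Between d6 male and E9.5 this is a change of 3.18 (SE 0.30, adjusted p = 0.000401) that held without each array. It was also higher in d6 female than at E9.5 (1.87, adjusted p = 0.00461). Endothelial cells express Epas1 strongly, the summed signal of their markers was highest in d6 male, and their part in this change was not tested. Cul2, a subunit of the VHL ligase, rose from d3 to d6 female (0.92) and to d3ag6 (0.94), and each call was lost without some of the arrays (adjusted p up to 0.149 and 0.0635). Cited2, which competes with HIF for its coactivator, changed by -1.20 from d3 to d6 female and lost its call without any 1 array. Across array codes, Cited2 was also called lower in d6 female and at E12.5 than at E9.5, and each call was lost without at least 1 array. Hif3a was called higher in d3ag6 (7.85 and 8.05) than at E12.5 (7.43 and 7.32) and lost its call without any 1 array.

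Of 23 other HIF targets tested, 3 (13%, background 10.6%) were higher in d3ag6 than in d3: Pgm1 (1.51), Plod2, a collagen lysyl hydroxylase (0.97), and Ero1a, an oxidase of the endoplasmic reticulum (1.46). Pgm1 kept this call without each array, and the other 2 lost it without any 1. In d3ag6 against E12.5, 7 (30.4%, background 9.03%) were called, all of them higher. They included Car12, a carbonic anhydrase (1.86), Pgm1, a phosphoglucomutase (2.03), Gys1, muscle glycogen synthase (1.94), and the repressor Bhlhe40 (2.75), each kept without each array. Of 21 other glycolysis genes tested, 1 was higher and 2 lower in the same comparison (14.3%, same background): G6pc3 at 1.71, a call kept without each array, and Tigar at -1.14 and Pdp1 at -1.40, the first lost without 3 of the 4 arrays and the second without any 1. In d3ag6 against d6 female, Pgm1 (1.18) and Ldhb, the heart-type lactate dehydrogenase subunit (0.85), were higher, with the call kept for Pgm1 in 2 of the 4 leave-one-outs and for Ldhb in none. No other gene of these lists was called in that comparison (background 6.39%). In d6 male against E9.5 (background 10.6%), Car12 (-1.87), Pgm1 (-1.33) and the testis-type Ldhc (-1.83) were lower. Tigar, which lowers fructose bisphosphate, was higher there (1.76), and each of these calls was kept without each array. The HIF target Bhlhe40 was called higher, at 6.75 and 7.37 in d6 male and 5.35 and 4.99 at E9.5. Eno3, Pdk3 and Slc2a4 were called lower, and these calls and that of Bhlhe40 were lost without some of the arrays.

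An interaction term compared 2 differences, that of d3ag6 from d6 female and that of E12.5 from E9.5. The d3ag6 cells were aggregated at d3 and did not pass through the d6 female state. The term called 8 of 32 genes higher and 1 lower (background 5.75%, of which 3.28% higher and 2.47% lower). Because E9.5 alone of these 4 groups has other array codes, the embryonic difference cannot be told apart from array code. The largest value was that of Slc16a3, with 1.63 between the PGCLC groups and -3.65 between the embryonic groups, or -2.19 with the floor at 4.81. Slc2a1, Pfkl, Tpi1 and Ldha kept their call without each of the 8 arrays. Slc2a3, Hk1, Slc16a3, P4ha1 and Ankrd37 lost theirs without at least 2 of them (adjusted p from 0.0501 to 0.15).

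Some called genes had other probe sets of their own with at least 2 arrays above 4.81. Their direction was the same in 16 of 17 in d3ag6 against E12.5, 8 of 10 in d6 male against E9.5 and 5 of 8 in d3ag6 against d3. It was the same in 2 of 3 in d6 female against d3, 1 of 1 in d3ag6 against d6 female, 12 of 15 at E12.5 against E9.5, 3 of 3 in d6 female against E9.5 and 1 of 2 in d6 female against d6 male. In d3ag6 against d3 the second probe set of Egln1 gave 1.10 and that of Pfkl 1.03, while those of Pfkfb3 (-0.40) and Mxi1 (-0.36) and the third of Pfkl (-0.06) pointed the other way. These last had means of 5.72, 4.56 and 6.29. The other probe sets of Egln3 and Ndrg1, with the same direction as the chosen ones, had means between 4.42 and 5.16. From d3 to d6 female the other probe set of Pfkfb3 gave -0.35, against 2.78.

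**Figure D4:**
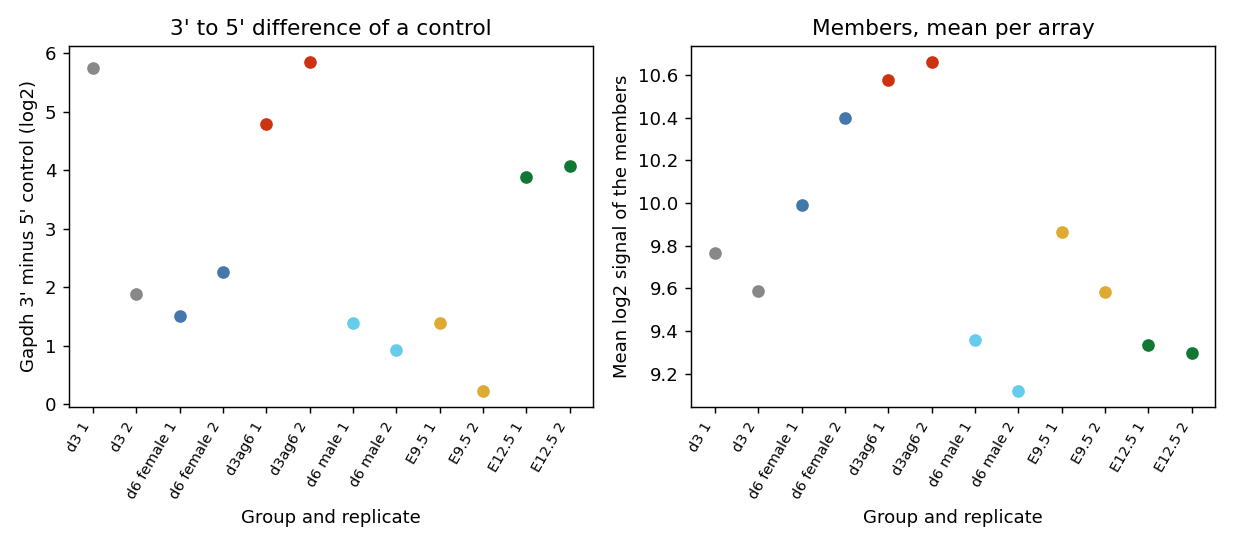
Left, the log2 difference between the 3′ and the 5′ control of Gapdh on each of the 12 arrays, a measure of how far amplified cDNA reached from the 3′ end; right, the mean log2 signal of the 32 genes on the same arrays. The d3ag6 and E12.5 arrays are both high on the left, while on the right d3ag6 is highest (10.58 and 10.66) and E12.5 is among the lowest (9.33 and 9.30).

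The mean signal of the 32 genes was 10.58 and 10.66 in d3ag6 and 9.33 and 9.30 at E12.5, and 9.77 and 9.59 on the 2 d3 arrays. The same difference for Actb was ordered otherwise than that for Gapdh: it was lowest on d3 replicate 1 (1.44), 2.29 and 1.93 in d3ag6, 2.30 and 2.16 at E12.5, and highest on d6 male replicate 1 (3.55). With it as a covariate, a setting added after the data were seen, 15 genes were called in d3ag6 against E12.5, 13 of them among the 15 called without it (Adm and Egln3 were lost). In d3ag6 against d3, 13 were called, among them all 12 called without it. This does not adjust for the Gapdh difference, which was not tested as a covariate.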

How the data were processed

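RNA from 12 sorted samples was amplified and hybridised to Affymetrix mouse arrays. The authors deposited 1 log2 value per probe set and array. Their background correction, summary and scaling are not given in the sources used here, and that the values are log2 is read from their range. Of 45101 probe sets 34958 name 1 gene, 932 several and 9211 none in the platform annotation.

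Values were quantile-normalized between arrays. A gene was taken from its probe set with the highest mean over the 12 arrays. Genes with at least 2 arrays above 4.81, the median of all values, were tested: 13436 of 18194. Limma (version 3.58.1, R 4.3.3) fitted 1 mean per group over the 12 arrays with 6 residual degrees of freedom. Tests were two-sided with Benjamini-Hochberg adjustment over all tested genes in each comparison, with calls at an adjusted p under 0.05. Folds are 2 to the power of the log2 change. The script was tested on simulated data.

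The genes, the further lists and the tests were chosen with earlier results of these data known. Genes called in a comparison of groups with the same array codes, among the 4 groups on EA1013 or in the interaction are given on every array, and the other members by range. Of the further lists, up to 5 called genes per comparison are named by adjusted p, with Hif1a, Epas1, Arnt and Vhl always. Tigar, Pdp1 and Hif3a in d3ag6 against E12.5 were named after their values were seen. So were Bhlhe40, Eno3, Pdk3 and Slc2a4 in d6 male against E9.5, Cited2 in the comparisons with E9.5, and members of small counts. Alternatives were the deposited values without quantile normalization, no filter or a stricter one, the mean of all probe sets, no control probe sets, a floor, a replicate block, other limma settings, the compared arrays alone and each array left out. Promoters came from RefSeq (GRCm38.p6).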

Additional observations from a re-analysis of the deposited data

Results flagged for a closer look

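For 9 of the 32 genes the difference of d3ag6 from d6 female PGCLCs was unlike that of E12.5 from E9.5 PGCs, by an interaction term in limma with adjustment over all 13436 genes. For Slc2a1 the gap between these 2 differences was 2.62 (SE 0.30, adjusted p = 0.00317), from 0.62 between the PGCLC groups and -2.01 between the embryonic groups. For Slc2a3 it was 1.30 (SE 0.23, adjusted p = 0.0137), where both differences were negative (-0.10 and -1.40). For Tpi1 it was 2.62 (SE 0.30, adjusted p = 0.00308) and for Pfkl 3.07 (SE 0.45, adjusted p = 0.00703). Ldha gave 3.35 (SE 0.41, adjusted p = 0.00345), from 0.68 and -2.67, and Slc16a3 gave 5.29 (SE 1.0, adjusted p = 0.0182), with E12.5 values below 4.81. Ankrd37 gave 2.79 (SE 0.49, adjusted p = 0.0139) and P4ha1 1.81 (SE 0.38, adjusted p = 0.0265). Hk1 alone had the opposite sign, -1.63 (SE 0.38, adjusted p = 0.0418), from -1.31 and 0.31. Slc2a1, Pfkl, Tpi1 and Ldha kept their call without each of the 8 arrays. The other 5 lost it without at least 2 of them (adjusted p from 0.0501 to 0.15). E9.5 was measured with other array codes than the other 3 groups, so the embryonic difference cannot be told apart from array code.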

How the results depend on the processing

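Of the values per gene and alternative, 3515 kept their side of the threshold, 258 lost their call, 50 gained one and 1 called change reversed its sign. The 3515 include values without a call whose sign changed. One was Ndrg1 at E12.5 against E9.5, at -0.0088 with the floor at 4.81 and 0.24 without it. The reversed value was that of Egln3 at E12.5 against E9.5, at 0.11 with the mean of all its probe sets, against -0.76. The other probe set of Egln3, with a mean of 4.42, gave 0.98. With each array left out, the number of the 32 genes called ranged from 0 to 1 (against 4) in d6 female against d3, 4 to 9 (12) in d3ag6 against d3, 0 to 1 (2) in d3ag6 against d6 female, 9 to 11 (15) in d3ag6 against E12.5, 6 to 9 (11) in d6 male against E9.5, 4 to 6 (7) in d6 female against E9.5, 0 to 7 (6) in d6 female against d6 male, 6 to 10 (13) at E12.5 against E9.5, and 17 to 21 (22) for any difference among the 4 groups on EA1013. Fitted on the compared arrays alone, the counts were 0 in d6 female against d3 (8 at an unadjusted p under 0.05 in limma), 7 in d3ag6 against d3, 4 in d6 male against E9.5, 3 in d6 female against E9.5 and 0 in d6 female against d6 male (17 unadjusted), whereas they were 18 in d3ag6 against E12.5 and 23 for any difference; the cause was not tested. Without the filter they were 1 in d6 female against d3, 0 in d3ag6 against d6 female (9 unadjusted) and 2 in d6 female against d6 male, with more genes tested. The mean of all probe sets gave 7 in d6 male against E9.5. The Actb covariate, added after the data were seen, gave 2 in d6 female against d3 and 1 in d6 female against d6 male. With the floor at 4.81, Slc16a3 in d6 female against d6 male was 1.75 and lost its call (adjusted p = 0.134).

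Replicate numbers were shared by all groups, but the labels do not say that a number pairs samples. Over 15 pairs of groups the correlation of deviations between arrays of the same number ran from -0.252 to 0.547, with 8 over 0.1 and 3 under -0.1, so not every pair deviated together. With the replicate block the counts were 4, 12, 3, 15, 12, 8, 7, 14 and 21 in the order of the ranges above. The block ended the calls of Egln3 in d3ag6 against E12.5, Ldha in d6 female against E9.5 and Slc16a3 in d6 female against d6 male, and no other call in the 8 comparisons. In d6 male against E9.5 the number also marks the array code (r = 0.547). The block of array code on those 4 arrays, added after the data were seen, called 11 genes, 10 of them shared. Dim genes such as Slc16a3, Vegfa and Ndrg1 are limited by signal near the median of the array.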
